A study of Mus musculus with 3 samples.

Results

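Blood B cells were taken from the single-cell library made from blood 3 days after burn/tenotomy. Members were chosen by measured values. A cell was kept with 200 or more genes detected and no more than 20% of its unique molecular identifiers (UMIs) from mitochondrial genes, and was a member with at least 5 UMIs of *Cd79a* and *Cd79b* together, at least 1 UMI of *Ms4a1*, at most 1 UMI of *Cd3d*, *Cd3e* and *Cd3g* together, and less than 5% of its UMIs from *S100a8* and *S100a9*. This rule found 358 of the 2184 blood cells that passed the cell filter, which is 16.4% (95% interval 14.9% to 18.0%), and the 3 libraries of the series held 9002 such cells in all. The mice were 10 weeks old, of the C57BL/6J strain and male per the study's methods, and had received a burn to the back and a cut through the Achilles tendon. There was 1 library each from blood, bone marrow and the tendon injury site, all unsorted, with no uninjured library among those analysed here and no number of mice per library in the sources used here. Blood had been run on a Ficoll gradient, which keeps mononucleated cells, and freed of red cells. Marrow had been flushed from the femurs and freed of red cells, and tissue of the injured tendon had been broken up enzymatically, so tissue, preparation and library cannot be told apart. With 1 library per tissue no test was run, cells were not used as replicates, and every interval below is a 95% interval that covers counting error only.

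B cells carry an antigen receptor made of membrane immunoglobulin and the signaling chains CD79A and CD79B, which pass the signal to kinases such as LYN, SYK and BTK. They present peptides of the antigen they bind on MHC class II molecules and receive help from T cells through CD40. New B cells leave the bone marrow as transitional cells and mature in the spleen, and most mature cells recirculate through blood and follicles, while innate-like B1 cells are found mainly in the body cavities. Immunoglobulin genes were not analysed here, so heavy chain isotype and light chain use are not described.

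The blood library held 2241 barcodes with 22542581 UMIs. Its B cells held 2288320 UMIs, with a median of 5142 per cell (892 to 39463) and a median of 1588 detected genes. The T cells of the same library, 730 cells with at least 3 UMIs of the *Cd3* genes and at most 1 of the *Cd79* genes, had a median of 8908 UMIs, and its monocytes had a median of 17554. The monocytes were 436 cells with at least 3 UMIs of *Csf1r*, *Fn1*, *Ccr2* and *Cx3cr1* together, at least 3 of *Lyz2* and *Ctss*, and at most 1 each of the *Cd79* and *Cd3* genes, so that these genes are no finding in monocytes. B cells were therefore the shallowest of these groups, and shares of cells with a UMI are given after each cell was thinned to 2000 UMIs, which left out 4 B cells, 2 T cells and 1 monocyte. The first condition of the rule, on *Cd79a* and *Cd79b*, left 383 cells, the condition on *Ms4a1* left 373, the condition on the *Cd3* genes left 363, and the condition on *S100a8* and *S100a9* left 358. Only 4 members lay just inside the first threshold, at 5 or 6 UMIs of *Cd79a* and *Cd79b*, and 3 cells lay just outside it, at 3 or 4. At the *Ms4a1* threshold, 33 members had 1 UMI, and 10 cells with 5 or more *Cd79* UMIs had none. The invariant chain gene *Cd74* had a UMI in all 4 members and all 3 cells next to the first threshold, and in all 33 and all 10 next to the second. The blood library shared 2 barcodes with the bone marrow library and 6 with the tendon library, and 1 barcode of each pair belonged to a B cell.

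Among the 358 members, 12 also held at least 2 UMIs of genes that define another cell type. They comprised 8 cells with monocyte genes, 4 with neutrophil genes, 3 with NK cell genes, 3 with platelet genes and 2 with erythroid genes, with some cells in several of these groups. Their median was 12731 UMIs, against 5110 in the other 346 members, and 6 of them were among the cells with the highest doublet scores. Some results below are given with and without these 12 cells. *Lyz2*, the lysozyme gene of myeloid cells, stood at 1079 CPM (1036 to 1122) in all members, where CPM is a gene's UMI count scaled to 1000000 UMIs summed over the cells of the group. Without the 12 cells it stood at 30.9 CPM, and 5 members held 96.0% of its 2468 UMIs. The NK cell protease gene *Gzma* and the platelet chemokine gene *Pf4* had all of their UMIs in 5 and 3 members.

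The label was checked against the 6 marker genes given for these cells and against genes that the rule did not use. *Cd79a* (ENSMUSG00000003379, chromosome 7, 24897381 to 24902197 on GRCm38 in GENCODE M21) was at 2523 CPM (2458 to 2589) and had a median of 15 UMIs per member. *Cd79b* (ENSMUSG00000040592, chromosome 11, 106311341 to 106314762), the partner chain, was at 1545 CPM (1495 to 1597). *Ms4a1* (ENSMUSG00000024673, chromosome 19, 11249675 to 11266241), which codes for the surface protein CD20, was at 1011 CPM (970.4 to 1053) with a median of 5 UMIs. These 3 genes chose the members, so their levels are a description. The other 3 markers were also found in most members. *Pax5* (ENSMUSG00000014030, chromosome 4, 44524757 to 44710487), the factor that holds cells in the B lineage, was at 239 CPM (219 to 259.9) with a UMI in 249 members. *Fcmr* (ENSMUSG00000042474, chromosome 1, 130865669 to 130880791), the receptor for IgM, was at 484 CPM (456 to 514) with a UMI in 314 members. *Vpreb3* (ENSMUSG00000000903, chromosome 10, 75943057 to 75949657), which is known from immature B cells, was at 293 CPM (271 to 316) with a UMI in 225 members. In the thinned cells the shares were 37.6% (32.5% to 42.8%) for *Pax5*, 58.2% (52.9% to 63.4%) for *Fcmr* and 41.2% (36.1% to 46.6%) for *Vpreb3*. The same shares in T cells of the library, which serve as the background, were 0%, 0.137% and 0%, where 0 of 728 cells allows a share of up to 0.412%.

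**Figure D1:**
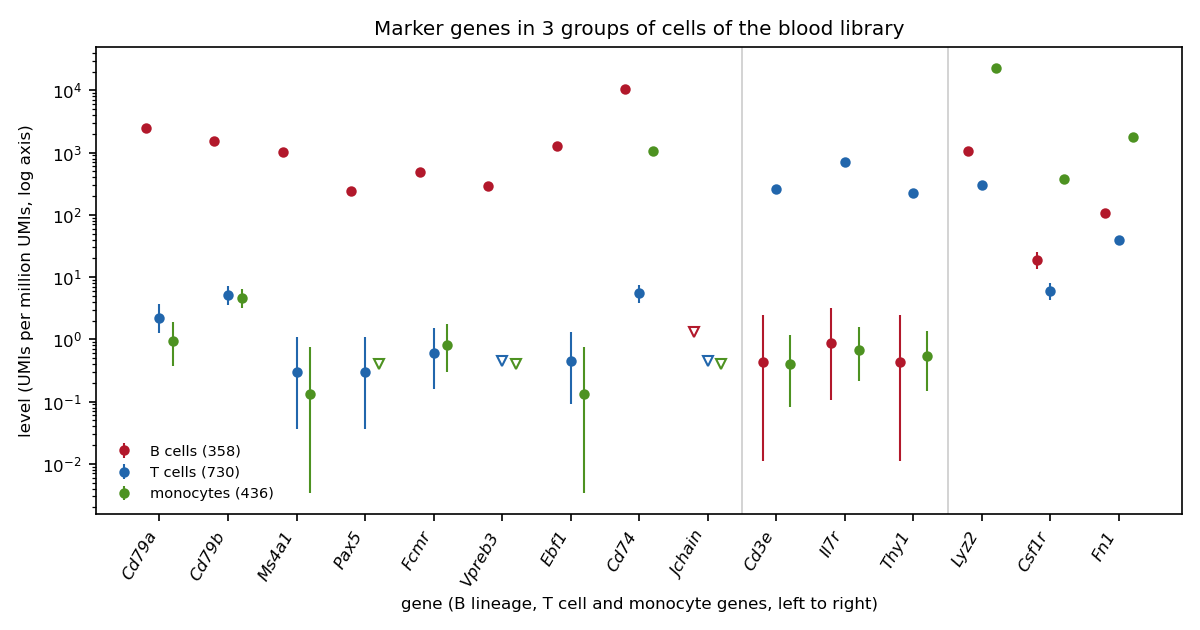
Levels of 15 genes in B cells, T cells and monocytes of the blood library, as UMIs per 1000000 UMIs on a log axis, with exact Poisson 95% intervals and open triangles at the limit of 3 counts where a group had none. *Ebf1*, which the rule did not use, sits at 1299 CPM in B cells and below 1 CPM in both other groups, the separation of *Cd79a*, *Cd79b* and *Ms4a1* was set by how the cells were chosen, *Jchain* is at 0 in all 3, and *Lyz2* in B cells (1079 CPM) lies mostly in 5 members.

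*Pax5*, *Fcmr* and *Vpreb3*, for which the rule had used no value, were at least 2-fold higher in B cells than in T cells and in monocytes. The 5 defining markers of antibody-secreting cells were scarce in the members. The rule asks for a UMI of *Ms4a1*, which antibody-secreting cells lose, so few such cells could be members, and 1 of the 10 cells with 5 or more *Cd79* UMIs and no *Ms4a1* had a UMI of *Jchain*. In the members *Jchain*, which joins antibody units, and *Tnfrsf17*, the receptor BCMA, had 0 UMIs, which allows up to 1.31 CPM each. *Sdc1* and the plasma cell factor *Prdm1* had 6 and 5 UMIs. These 5 markers summed to 6.12 CPM in 13 members. The wider plasma cell list of 9 genes, which also holds genes that B cells use, summed to 444 CPM in B cells, 33.6 CPM in T cells and 269 CPM in monocytes, and all 4 genes tested against T cells were higher, with a median log2 ratio of 3.07. They were *Mzb1*, a chaperone of antibody assembly, *Irf4*, *Xbp1* and *Slamf7*, and *Mzb1* held 329 CPM of the sum in B cells. Genes of B cell precursors were also scarce in the members, and whether the rule's condition on *Ms4a1* left precursors out was not tested. *Rag1* and *Rag2*, which recombine the receptor genes, and the surrogate light chain genes *Igll1* and *Vpreb2* had 0 UMIs, *Vpreb1* had 1, and the list of 9 genes summed to 6.56 CPM.

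The promoter of *Vpreb3* is shown because this marker was not detected in any T cell or monocyte of the library, and because it held the octamer, a motif bound by OCT2, the product of *Pou2f2*, with the coactivator that *Pou2af1* codes for. The 250 bases before each RefSeq start site on GRCm38.p6 were searched on both strands for ATGCAAAT, and 1.76% of 17999 genes with a promoter in the table held it. Of the 6 markers, 4 had a promoter there and only *Vpreb3* held the octamer. It was also found in 2 of 13 signaling genes, *Blnk* and *Prkcb*, and in 0 of 12 B cell transcription factor genes, 0 of 10 inhibitor genes and 0 of 7 MHC class II genes. The EBF motif, searched in the same way and found in 1.04% of all genes, was in 0 of the 4 markers, 0 of 7 MHC class II genes, 0 of 13 signaling genes, 1 of 12 transcription factor genes (*Foxo1*) and 1 of 10 inhibitor genes (*Cd22*). The 120 bases before its start are printed 5′ to 3′ on the plus strand (chr10:75948180-75948299), with the motif, which lies 45 to 38 bases before the start and reads in reverse, in capitals.
Vpreb3: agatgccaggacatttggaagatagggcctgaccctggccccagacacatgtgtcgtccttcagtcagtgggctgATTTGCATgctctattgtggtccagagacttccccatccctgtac

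The same table was searched for the Y box CTGATTGG, the CCAAT element of MHC class II promoters, since these genes were among those with the largest ratios. It was found in 5.08% of the 17999 genes and in 3 of the 7 MHC class II genes of the list that had a promoter, *H2-Aa*, *H2-Eb1* and *H2-Oa*. It was in 0 of the 4 markers, 0 of the 10 inhibitor genes, 1 of 12 transcription factor genes (*Irf8*) and 1 of 13 signaling genes (*Bcl10*). For the 3 class II genes the 120 bases before the start are printed 5′ to 3′ with the Y box in capitals, from chr17:34287824-34287943 on the minus strand, chr17:34305747-34305866 on the plus strand and chr17:34092259-34092378 on the plus strand. A match to these letters is a description of the sequence and not a site of binding.
H2-Aa: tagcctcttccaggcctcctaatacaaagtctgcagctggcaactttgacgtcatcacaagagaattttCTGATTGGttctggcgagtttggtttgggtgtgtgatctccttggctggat
H2-Eb1: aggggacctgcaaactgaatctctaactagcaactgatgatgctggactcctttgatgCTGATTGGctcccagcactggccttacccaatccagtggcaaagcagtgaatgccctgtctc
H2-Oa: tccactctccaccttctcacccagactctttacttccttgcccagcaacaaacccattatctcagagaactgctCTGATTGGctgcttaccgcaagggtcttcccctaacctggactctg

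B cells were next compared with the T cells and the monocytes of the same library, which were prepared together with them. Of 8104 genes with at least 50 UMIs in B and T cells together, 1027 (12.7%) were at least 2-fold higher in B cells and 605 (7.47%) at least 2-fold lower, and the median log2 ratio of all genes was 0.19. Centred on that median, 778 were higher and 762 lower. Against monocytes, 1098 of 8617 genes (12.7%) were higher and 1896 (22%) were lower, with a median of -0.08. The largest ratios over T cells, beside *Ms4a1*, were those of *Ebf1*, an early B lineage factor, at a log2 ratio of 11.51 (9.96 to 13.79), *H2-Eb1* at 11.21 (10.23 to 12.42), *Gm43603* at 11.21 (8.73 to 16.52), *Ly6d* at 11.18 (9.95 to 12.80), *Cd74* at 10.91 (10.45 to 11.42), *Fcer2a* at 10.85 (8.37 to 16.16), *Siglecg* at 10.79 (8.31 to 16.09), *H2-Aa* at 10.65 (9.88 to 11.56) and *H2-Ab1* at 10.64 (9.84 to 11.60). *Ly6d*, a surface protein that appears when progenitors commit to the B lineage, was at 1720.0 CPM (1667 to 1775) in B cells and 0.742 CPM in T cells. The genes that were lowest against T cells, beside the *Cd3* genes of the rule, were T cell genes, with *Il7r* at -9.66 (-12.70 to -7.80), *Thy1* at -9.01 (-14.32 to -6.53), *Lat* at -8.89 (-14.19 to -6.41), *Tcf7* at -8.27 (-10.55 to -6.72) and *Igfbp4* at -8.21 (-11.26 to -6.36). *Cd8b1* and *Dapl1* had 0 UMIs in B cells, for log2 ratios of at most -8.57 and at most -8.05.

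Against monocytes the largest ratios, beside *Ms4a1* and *Cd79a*, were those of *Ebf1*, *Fcer2a*, *Pou2af1*, *Ccr7*, *Mzb1*, *Vpreb3*, *Gm43291* and *Chst3*, with log2 ratios between 9.33 and 13.24, where the value of *Vpreb3* is a lower limit because monocytes had 0 UMIs. *Mzb1*, a chaperone of B cells that helps to assemble IgM, was at 329 CPM (306 to 353) in B cells, 0 in T cells and 0.268 CPM in monocytes. The lowest were *Abcd2*, *Slpi*, *Lyz1*, *Tnfrsf21*, *Dna2*, *Sort1*, *Cd300lg*, *Vcan*, *Hnrnpll* and *Havcr2*, with log2 ratios from -7.35 to -6.31. *Slpi*, a protease inhibitor of myeloid cells, was at 1892 CPM in monocytes and 11.8 CPM (7.78 to 17.2) in B cells, and at 3.33 CPM without the 12 members that carried genes of other cell types.

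The receptor and coreceptor list holds *Cd79a* and *Cd79b*, which chose the B cells and were limited to 1 UMI in T cells and monocytes, so no count or median of that list is given. *Cd81*, a membrane protein found on many cell types, was at 154 CPM (138 to 171) in B cells, 8.61 CPM in T cells and 38.8 CPM in monocytes. *Cr2*, the complement receptor CD21, was at 146 CPM (130.3 to 162), against 1.78 and 0.268 CPM, and a UMI of it was found in 155 members. *Ifitm3* was at 192 CPM (174 to 211), but only 22.8 CPM without the 12 members, while monocytes held 3800.3 CPM and T cells 38.6.

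Of the 17 signaling genes tested, 15 were higher than in T cells, 1 was lower and the median log2 ratio was 5.50. The adapters *Blnk* and *Bank1* were at 159 CPM (143 to 176) and 532 CPM (503 to 563), with log2 ratios of 9.07 (7.20 to 12.12) and 8.49 (7.60 to 9.55). The kinase genes *Syk*, *Blk*, *Btk* and *Lyn* had log2 ratios of 7.58 (6.77 to 8.54), 8.59 (6.72 to 11.64), 7.33 (6.09 to 8.96) and 5.50 (5.08 to 5.96). The exception was *Pik3cd*, a lipid kinase subunit shared by lymphocytes, at -1.04 (-1.33 to -0.75). Against monocytes 11 of 18 signaling genes were higher, 0 were lower and the median was 1.37. Monocytes held several of the same signaling genes. *Lyn* was at 317 CPM in B cells and 503 CPM in monocytes, *Syk* at 341 and 145 CPM, and *Plcg2* at 84.3 and 103 CPM. *Blk* was not detected in monocytes, for a log2 ratio of at least 8.15, and *Bank1* reached 5.69 (5.36 to 6.04).

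Inhibitory receptors and phosphatases were present together with the activating chain. Of 10 tested, 8 were higher than in T cells and 1, *Cd5*, was lower, with a median log2 ratio of 3.05. *Cd22* and *Siglecg*, lectins that bind sialic acid and dampen receptor signaling, were at 147 CPM (132 to 163) and 263 CPM (242 to 285), with log2 ratios over T cells of 7.63 (6.39 to 9.26) and 10.79 (8.31 to 16.09). *Fcrla*, an Fc receptor-like protein inside the cell, was at 230.3 CPM (211 to 251) and had 0 UMIs in T cells. *Cd5*, which marks T cells and B1a cells, had 3 UMIs in all members and stood at 65.3 CPM in T cells. Against monocytes 4 of the 10 genes tested were higher, 4 were lower and the median was -0.04. The Fc receptor gene *Fcgr2b* was at 69.5 CPM in B cells and 179 CPM in monocytes, and *Pirb* at 52.4 and 415 CPM.

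The transcription factors of the mature B cell were all measured. Of 15 genes, 12 were at least 2-fold higher than in T cells and 0 lower, with a median log2 ratio of 4.08, and against monocytes 11 were higher and 1, *Spi1*, was lower, with a median of 3.18. *Ebf1* was at 1299 CPM (1253 to 1347), *Pou2af1*, the coactivator of the octamer factors, at 213 CPM (194 to 233) and *Spib* at 146 CPM (131 to 162), with 0 *Spib* UMIs in T cells. *Mef2c* and *Bcl11a* had log2 ratios over T cells of 9.49 (8.51 to 10.71) and 10.53 (8.04 to 15.83). The genes within 2-fold of T cells were *Ets1*, *Foxo1* and *Klf2*, factors that keep lymphocytes at rest or guide their traffic. *Ets1* was at 717 CPM (683 to 753) in B cells and 713 CPM in T cells, and *Klf2* at 1093 CPM (1051 to 1137) and 1018 CPM. *Spi1*, the myeloid and B cell factor PU.1, was at 91.3 CPM (79.4 to 105) in B cells, 554 CPM in monocytes and 6.83 CPM in T cells.

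**Figure D2:**
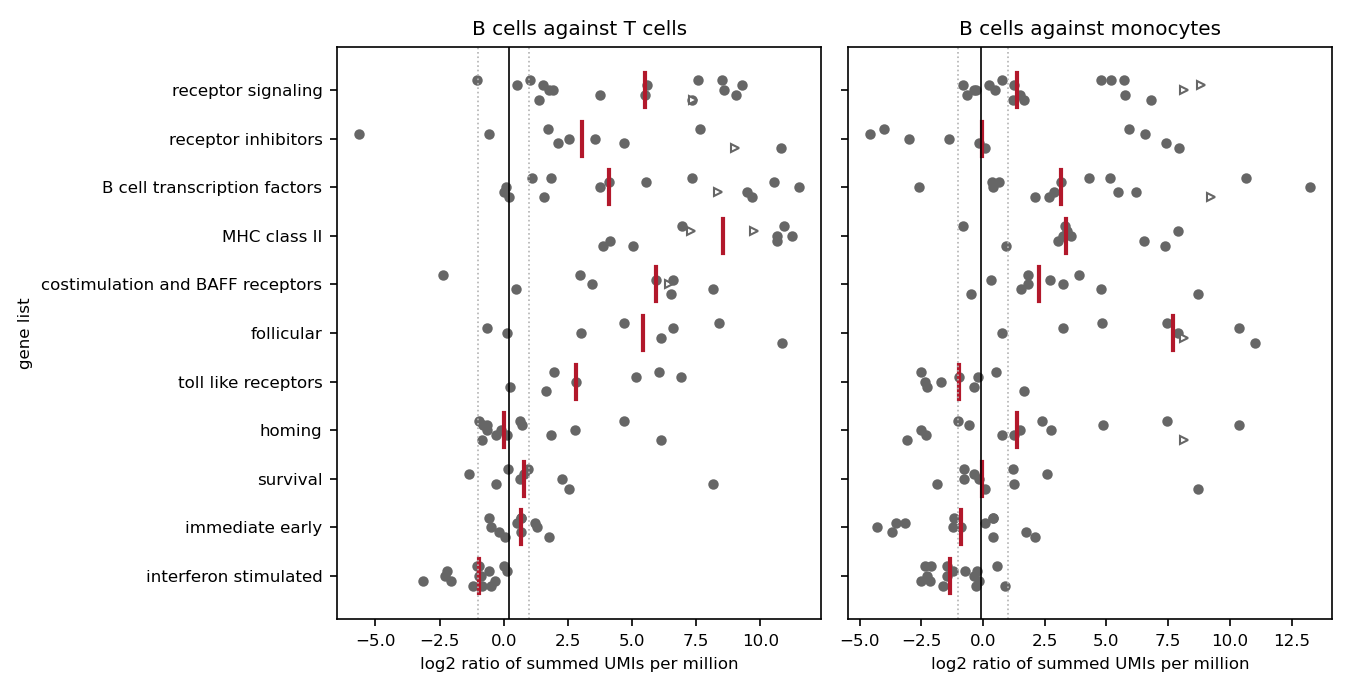
Log2 ratios of the genes of 11 lists, B cells against T cells (left) and against monocytes (right), with 1 point per gene with at least 50 UMIs, open triangles for lower limits, a red bar at the list's median, a black line at the median of all genes and dotted lines at 2-fold. The 10 MHC class II genes all lie right of the 2-fold line against T cells, while 6 of 15 interferon stimulated genes lie left of the lower 2-fold line against T cells and 9 of 16 against monocytes.

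MHC class II genes were far higher in B cells than in T cells. All 10 were at least 2-fold higher, with a median log2 ratio of 8.53, and their summed level was 20729 CPM in B cells, 54.3 in T cells and 2260 in monocytes. *Cd74*, the invariant chain, was at 10601 CPM (10468 to 10736). The chains *H2-Aa*, *H2-Ab1* and *H2-Eb1* were at 3105 CPM (3033 to 3178), 2847 CPM (2778 to 2917) and 2817 CPM (2749 to 2887), and monocytes held 332, 344 and 239 CPM. After thinning, 98.3% (96.3% to 99.4%) of B cells had a UMI of *H2-Aa*, against 0.412% (0.0851% to 1.20%) of T cells and 9.20% (6.65% to 12.3%) of monocytes. Against monocytes 8 of the 10 genes were higher and 0 lower, with a median of 3.36. *H2-Oa* and *H2-Ob*, which code for the inhibitor of peptide loading found mainly in B cells, had log2 ratios of 6.51 (5.72 to 7.44) and 7.37 (6.64 to 8.21). *H2-DMa*, a chain of the loading catalyst, was at 356 CPM in B cells and 187 in monocytes. *Ciita*, the activator of these genes, was at 70.4 CPM (59.9 to 82.1) in B cells, 0 in T cells and 6.69 CPM in monocytes.

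Receptors for T cell help and for survival factors were mostly higher in B cells. Of 9 genes tested against T cells, 7 were higher and 1, *Cd27*, was lower, with a median of 5.92. *Tnfrsf13c*, the receptor for the survival factor BAFF, was at 167 CPM (151 to 185) and its log2 ratios were 8.13 (6.77 to 10.02) over T cells and 8.70 (7.14 to 10.98) over monocytes. *Cd40* was at 38.5 CPM (30.8 to 47.4), 0 in T cells and 10.8 CPM in monocytes. *Icosl* was at 56.8 CPM (47.5 to 67.5) and *Cd83* at 67.7 CPM (57.5 to 79.3), with log2 ratios over monocytes of 3.24 (2.74 to 3.76) and 3.90 (3.35 to 4.48). *Cd80* and *Cd86*, which B cells raise on activation, were at 3.93 CPM (1.80 to 7.47) and 28.8 CPM (22.3 to 36.7), and *Cd70* had 0 UMIs. *Cd27* was at 28.4 CPM (21.9 to 36.2) in B cells and 148 CPM in T cells.

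Of 14 homing genes, 4 were at least 2-fold higher in B cells than in T cells and 0 lower, beside 12.7% and 7.47% of all genes, and the median log2 ratio was 0.00 beside 0.19 over all genes. The 4 genes were *Cxcr5*, the receptor for entry into follicles, at 6.13 (5.27 to 7.15), *Ccr6* at 4.70 (3.84 to 5.70), *Cnr2* at 2.78 (2.11 to 3.49) and *Cxcr4* at 1.84 (1.61 to 2.07). *Ccr7*, which guides lymphocytes into lymph nodes, was at 179 CPM (162 to 197) in B cells and 278 CPM in T cells, and *S1pr1*, the receptor for exit from lymphoid tissue, at 185 CPM (168 to 203) and 324 CPM. Against monocytes 8 were higher and 4 were lower, and the 4 were the integrin genes *Itgb1*, *Itgb7*, *Itgal* and *Itgb2*. The median against monocytes was 1.39. Of the 8 follicular B cell genes, 6 were higher than in T cells, with a median of 5.42. *Fcer2a*, the low affinity IgE receptor CD23 of follicular B cells, was at 275 CPM (254 to 297) and had a UMI in 240 members, against 0.148 CPM in T cells and 0.134 CPM in monocytes.

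No tested gene of the interferon stimulated list, which does not hold *Ifitm3*, was 2-fold higher in B cells than in T cells or monocytes. Of 15 tested against T cells, 0 were higher and 6 were lower, beside 12.7% and 7.47% of all genes. The median log2 ratio was -0.96. Of 16 tested against monocytes, 0 were higher and 9 were lower, beside 12.7% and 22% of all genes. The median against monocytes was -1.33. *Isg15*, a ubiquitin-like protein, was at 12.7 CPM (8.49 to 18.2) in B cells, 52.7 CPM in T cells and 73.5 CPM in monocytes. The GTPase genes *Igtp* and *Ifi47* had log2 ratios against T cells of -2.21 (-2.77 to -1.69) and -2.28 (-2.63 to -1.96). *Ifi27l2a* was at 775 CPM (739.6 to 812) in B cells and 716 CPM in T cells, a log2 ratio of 0.12 (0.04 to 0.19). *Ifit3* had 37 UMIs in 16 members, with 70.3% of them in 5 cells, and 5 members held UMIs of both *Ifit3* and *Ifit2*.

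Immediate early genes follow recent stimulation or handling. Of 11 tested against T cells, 3 were higher and 0 lower, beside 12.7% and 7.47% of all genes. The median was 0.65, beside 0.19 over all genes, and 0.37 without the 12 members. The 3 were *Nr4a1*, *Fos* and *Jund*. *Nr4a1*, a gene that B cells switch on after receptor signals, was at 12.2 CPM (8.13 to 17.7) and at 2.38 CPM without the 12 members, so that it lay below the 3.56 CPM of T cells then. *Egr1*, *Egr2* and *Egr3* had 1 UMI each in all members. *Jund* was at 1005 CPM (964 to 1047) in B cells and 432 CPM in T cells. Against monocytes 2 of 13 were higher and 6 lower, beside 12.7% and 22% of all genes. *Fos* was at 19.7 CPM in B cells and 251 CPM in monocytes.

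Sensors of microbial products gave 6 higher and 0 lower of 7 tested against T cells, with a median of 2.82. *Cd180* and its partner *Ly86*, which tune the response of B cells to lipopolysaccharide, were at 97.0 CPM (84.7 to 111) and 286 CPM (265 to 309), with log2 ratios of 6.03 (5.12 to 7.11) and 6.91 (6.20 to 7.73). *Unc93b1*, which carries receptors to the endosome, was at 229 CPM (209 to 249). *Tlr9* had 11 UMIs and *Tlr7* 32. Among cytokine genes, *Ltb* was at 909 CPM (871 to 949) in B cells and 587 CPM in T cells, while *Il10* and *Il6* had 0 UMIs. *Il12a*, a subunit of interleukin 12 and interleukin 35, had 52 UMIs in 39 members and 0 in T cells and monocytes, and after thinning 3.67% (1.97% to 6.20%) of B cells had one. Its possible partner for interleukin 35, *Ebi3*, had 15 UMIs in 15 members. Of 9 survival genes tested against T cells, 3 were higher and 1 was lower, beside 12.7% and 7.47% of all genes. The median was 0.80, beside 0.19 over all genes. The 3 higher survival genes were *Tnfrsf13c*, *Birc3* and *Rel*, and the lower gene was *Bcl2*, at 148 CPM (132 to 164) in B cells and 379 CPM in T cells.

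The same rule found 26 of 1840 cells in the bone marrow library (1.41%, 0.925% to 2.06%), with 182751 UMIs and a median of 5194 per cell. Of these, 10 also held genes that define another cell type, 9 of them neutrophil genes, and the neutrophil list summed to 1040 CPM in marrow B cells and 239 CPM in blood B cells. Of 4827 genes, 384 (7.96%) were at least 2-fold higher in blood B cells and 610 (12.6%) lower, with a median log2 ratio of -0.24, and centred on that median 549 were higher and 339 lower. Homing genes were the list with most members higher in blood, 10 of 14, with 0 lower and a median of 1.40, and 1.06 when cells with genes of other types were left out of both groups. *Gpr183*, a receptor that guides B cells in lymphoid tissue, was at 211 CPM (192 to 230.3) in blood B cells, against 54.7 CPM (26.2 to 101) in those of marrow, a log2 ratio of 1.94 (1.05 to 3.01). *Cxcr5* and *Ccr7* had log2 ratios of 1.58 (0.52 to 2.91) and 1.57 (0.72 to 2.59). *Cxcr4*, the receptor that holds cells in marrow, was at 149 CPM (134 to 166) in blood B cells, against 60.2 CPM (30.0 to 108) in those of marrow. Of 8 follicular genes 5 were higher, with a median of 1.49, and 1.13 without cells that carried genes of other types, among them *Fcer2a* at 1.95 (1.17 to 2.87) and *Icosl*, with 1 UMI in the marrow cells, at 3.38 (0.87 to 8.69).

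Antigen presentation genes were also higher in blood in part. Of 10, 4 were higher and 0 lower, beside 7.96% and 12.6% of all genes. The median was 0.68, and the 4 were *H2-Aa*, *H2-Ab1*, *H2-Eb1* and *H2-DMb1*. After thinning, *H2-Aa* had a UMI in 65.4% (44.3% to 82.8%) of marrow B cells, and in 98.3% (96.3% to 99.4%) of blood B cells as above. The signaling genes gave 0 of 17 in either direction, beside 7.96% and 12.6% of all genes. Their median was 0.22 (-0.0049 with each cell weighted equally). Of 15 B cell transcription factor genes, 0 were higher in blood and 3 lower, beside 7.96% and 12.6% of all genes. Their median was -0.12, and -0.55 without cells that carried genes of other types. Among them *Ebf1* was at 1299 CPM in blood and 1237 CPM in marrow. Of the 5 transitional B cell genes 2 were tested, and both were lower in blood, with a median of -1.90. *Vpreb3* was at 1559.5 CPM (1384 to 1751) in marrow, for a log2 ratio of -2.41 (-2.61 to -2.21), and *Cd24a* at 509 CPM (411 to 623), for -1.39 (-1.72 to -1.06). *Cd93*, the surface marker of transitional cells, had too few UMIs for a ratio, with 16 UMIs in 6 of the 26 marrow cells and 10 UMIs in 8 of the 358 blood cells. After thinning the shares were 11.5% (2.45% to 30.2%) and 1.41% (0.460% to 3.27%), beside 0.412% (0.0851% to 1.20%) in blood T cells. Among the cells chosen by this rule, 0 of the 9 precursor genes had enough UMIs for a ratio, and *Rag1* had 5 UMIs in 2 marrow cells and 0 in blood.

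**Figure D3:**
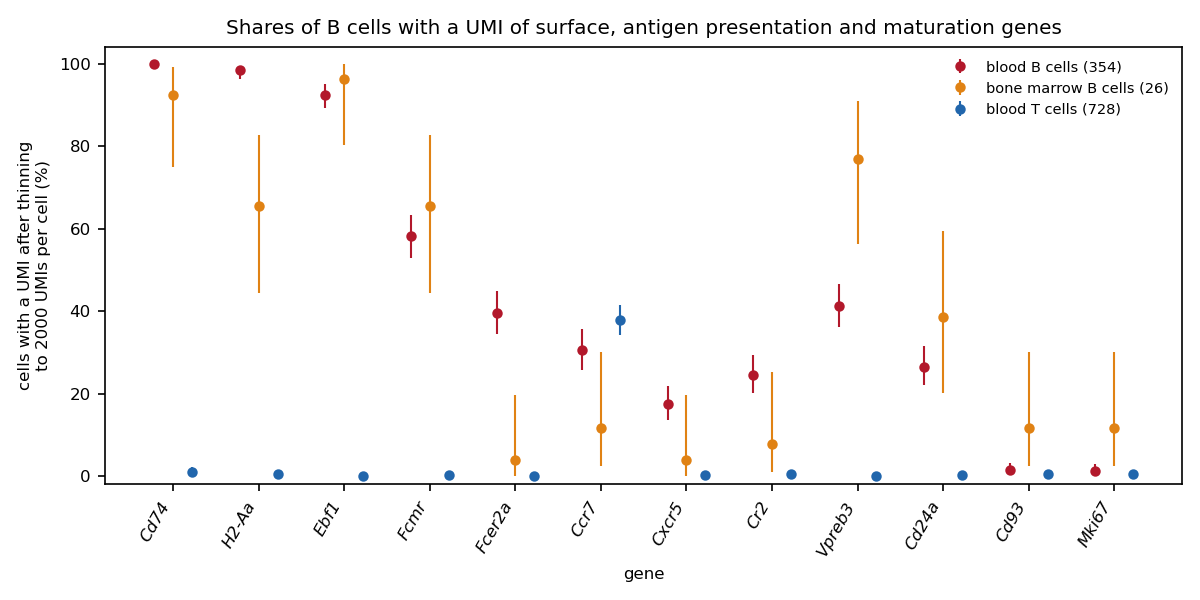
Shares of cells with a UMI of 12 genes after thinning to 2000 UMIs per cell, in blood B cells (354), bone marrow B cells (26) and blood T cells (728, the background), with exact binomial 95% intervals. *Fcer2a* is found in 39.5% of blood B cells and 3.85% of marrow B cells, *Vpreb3* in 41.2% and 76.9%, and the marrow intervals are wide.

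The 10 genes with the lowest ratios in blood against marrow B cells ran from *Cenpf* at -5.47 (-6.13 to -4.85) to *Hist1h2ae* at -3.04 (-3.43 to -2.64). The others were *Mki67*, *Hist1h1b*, *Hist1h2ab*, *Top2a*, *Stmn1*, *Ube2c*, *Lmnb1* and *H2afx*. *Mki67* was at 26.7 CPM (20.4 to 34.2) in blood B cells, against 1072 CPM (928 to 1234) in those of marrow, where all of its UMIs lay in 4 cells. Cells with at least 2 UMIs of *Mki67* and *Top2a* were 4 of 26 in marrow (15.4%) and 4 of 358 in blood (1.12%). The 10 genes with the highest ratios in blood were led by *Lyz2* at 4.62 (3.64 to 5.84) and *Wfdc17* at 4.30 (1.81 to 9.61). Without the 12 members *Lyz2* stood at 30.9 CPM in blood B cells, below the 43.8 CPM of all marrow B cells, and *Wfdc17* at 36.1 CPM. The others were *S100a6*, *Anxa2*, *Icosl*, *Ahnak*, *Fxyd5*, *Zmym5*, *Slfn5* and *Sfn*. *S100a6*, a calcium-binding protein, was at 1128 CPM (1085 to 1172) in blood B cells, against 76.6 CPM (41.9 to 129) in those of marrow, and it was unevenly spread, since 79 of 358 blood B cells had a UMI of it.

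Maturity genes were counted per member, without thinning. *Fcer2a* had a UMI in 240 members and *Cd93* in 8, and 6 had both, so that 2 members had *Cd93* alone and a comparison of these groups could not be made. *Vpreb3* and *Fcer2a* were found together in 170 members, *Vpreb3* alone in 55 and *Fcer2a* alone in 70. *Cr2* and *Fcer2a* were found together in 116, *Cr2* alone in 39 and *Fcer2a* alone in 124. *Vpreb3* was thus not limited to members without *Fcer2a*. Both genes had a median of 1 UMI per member, so a count of 0 does not show that a member lacked either. The germinal center list of 8 genes summed to 28.8 CPM in B cells and 40.5 CPM in T cells. Of this list, *S1pr2*, *Gcsam* and *Mef2b* had 0 UMIs in the members. The list of 6 genes of age-associated B cells summed to 142 CPM in B cells and 48.3 CPM in T cells, and each gene had a UMI in the members. Of these genes, *Tbx21* and *Itgax* had 2 UMIs each and *Fcrl5* had 41.

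A few members held *Bhlhe41*, *Zbtb32* or *Fcrl5*, genes known from B1, marginal zone and memory B cells. *Bhlhe41* had 48 UMIs in 22 members, *Zbtb32* 57 in 23 and *Fcrl5* 41 in 25. *Bhlhe41* and *Zbtb32* were found together in 14 members, with 8 and 9 that had only the one or the other. After the members with genes of other cell types were left out, 42 cells had at least 1 UMI of the 3 genes, and 16 of these had at least 2 of the genes. They were compared with 218 cells that had *Fcer2a* and none of the 3, and this split was chosen after the data had been seen. The 42 cells were deeper, with a median of 10921 UMIs against 5040, and 15 of them also had *Fcer2a*. The comparison was therefore repeated with cells of 4000 to 12000 UMIs, 22 against 189, called matched depth below. Their medians were 6500.5 and 5205 UMIs, so depth was brought closer but was not made equal. Of 3534 genes, 121 (3.42%) were at least 2-fold higher in the 42 cells and 304 (8.6%) lower, with a median of -0.16, and centred on the median 159 were higher and 202 lower. At matched depth 74 of 2676 (2.77%) were higher and 193 (7.21%) lower.

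The 10 genes with the largest ratios in the 42 cells included *S100a6*, *Ahnak*, *Crip1* and *Lgals1*. *S100a6* was at 3941 CPM (3772 to 4116) in the 42 cells, where 29 had a UMI, and at 37.2 CPM in the 218 cells, where 23 did. Over all 358 members, 5 held 42.7% of its UMIs. Its log2 ratio was 6.73 (6.29 to 7.20) and at matched depth 5.42 (4.94 to 5.93). *Ahnak*, a large scaffold protein, had 3.45 (3.17 to 3.74) and 3.21 (2.84 to 3.58), and *Crip1* had 3.49 (3.39 to 3.60) and 2.30 (2.15 to 2.45). For *Crip1* the thinned shares at matched depth were 68.2% (45.1% to 86.1%) and 60.3% (53.0% to 67.3%), whose intervals overlap, and 5 members held 29.7% of its UMIs. *Lgals1* had 3.91 (3.43 to 4.43) and 2.69 (1.93 to 3.45). *Tppp3*, *S100a4*, *Anxa2*, *Lmna*, *Rassf4* and *Ccnd2* had log2 ratios between 3.43 and 7.40 over all cells and fewer than 50 UMIs at matched depth, so no matched ratio is given. *Tppp3* had UMIs in 17 of the 42 cells and in 2 of the 22 cells at matched depth. In monocytes *S100a6* stood at 3170.0 CPM and *Crip1* at 2786 CPM. *Lyz2* was at 13.6 CPM (5.46 to 28.0) in the 42 cells and 33.7 CPM in the 218, but members with genes of other cell types had been left out of both groups beforehand, and a part of monocyte RNA in these ratios was not tested. After thinning, 64.3% (48.0% to 78.4%) of the 42 cells had a UMI of *S100a6*, against 2.30% (0.752% to 5.29%) of the cells with *Fcer2a*. At matched depth the shares were 36.4% (17.2% to 59.3%) and 4.23% (1.84% to 8.17%).

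**Figure D4:**
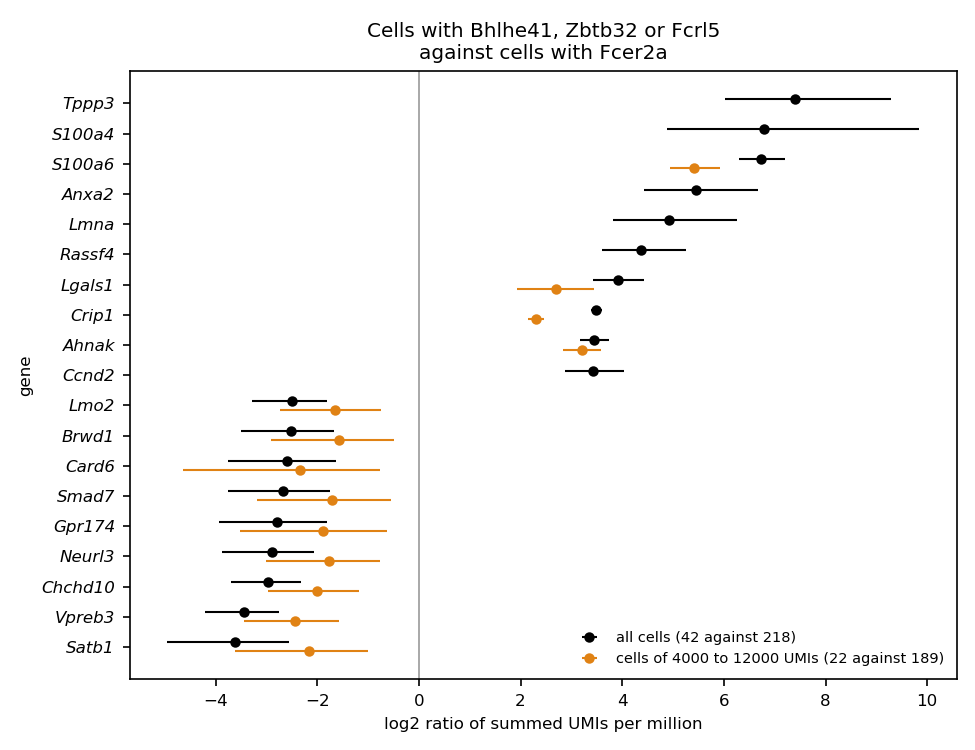
Log2 ratios of the named genes, cells with *Bhlhe41*, *Zbtb32* or *Fcrl5* against cells with *Fcer2a*, for all cells (black) and for cells of 4000 to 12000 UMIs (orange), with exact binomial 95% intervals and no matched value for genes with fewer than 50 UMIs at matched depth (*Tppp3*, *S100a4*, *Anxa2*, *Lmna*, *Rassf4* and *Ccnd2*). The plotted genes with a matched value keep their side, and for *S100a6* the matched ratio is 5.42 instead of 6.73.

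Of the follicular genes, *Fcer2a* was used by the split and is left out here. Of the other 7 genes, 6 were at least 2-fold lower in the 42 cells, beside 8.6% of all genes. Their median log2 ratio was -1.43. At matched depth 3 of the 7 were lower, beside 7.21% of all genes, and the median was -0.99. *Cd55* had -1.43 (-1.75 to -1.11) and at matched depth -0.98 (-1.49 to -0.51). *Cxcr5*, the exception over all cells, had 0.36 (-0.07 to 0.79) and 0.37 (-0.34 to 1.02). The genes with the lowest ratios, beside *Fcer2a*, were *Satb1*, *Vpreb3*, *Chchd10*, *Neurl3*, *Gpr174*, *Smad7*, *Card6*, *Brwd1* and *Lmo2*. *Satb1*, a chromatin organizer of lymphocytes, had -3.62 (-4.95 to -2.55) and -2.16 (-3.62 to -1.01), and *Vpreb3* had -3.43 (-4.20 to -2.76) and -2.44 (-3.45 to -1.58). *Cd72*, an inhibitory receptor, had -2.50 (-3.44 to -1.69) and -2.51 (-4.40 to -1.12). Of 15 B cell transcription factor genes 6 were lower and 0 higher, beside 8.6% and 3.42% of all genes, and the median was -0.67. At matched depth 2 of the 15 were lower, beside 7.21% of all genes, and the median was -0.31.

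Of the marginal zone list, 4 genes were tested in the split, 1 was higher, *Cd9*, and 1 was lower, *Cr2*, at -2.21 (-2.91 to -1.57), with a median of 0.68. At matched depth 2 were tested, 0 were higher and 0 lower, with a median of 0.02. *Cd9*, a membrane protein of marginal zone and B1 cells, had 66 UMIs in 19 of the 42 cells and 1 in 1 of the 218. *Plscr1* had 23 UMIs in 14 cells and 1 in 1, and *Cd80* had 9 in 9 cells and 0 in the 218. *Itgb1* had a log2 ratio of 3.31 (2.58 to 4.11), and fewer than 50 UMIs at matched depth. *Cd5*, which marks the B1a subset, had 2 UMIs in the 42 cells, and *Spn*, the CD43 gene of B1 cells, had 9 UMIs in 8 of them and 6 in 6 of the 218. *Mzb1* was at 522 CPM (461 to 588) and 279 CPM (249 to 311), a log2 ratio of 0.90 (0.66 to 1.14). The 42 cells were given no cell type name, since 18 of them rested on 1 UMI of the 3 genes. Of the 4 members with at least 2 UMIs of *Mki67* and *Top2a*, 3 were among the 42 cells, and 4 of the 42 cells held 57 of the 61 *Mki67* UMIs. A single member held 44 of the *Mki67* UMIs, so no count over the cell cycle list is given for the split.

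The marker lists of other cell types were summed over all members. The rule limited the *Cd3* genes of the T cell list and *S100a8* and *S100a9* of the neutrophil list, so low levels of these genes are no finding. The monocyte list had UMIs of all 10 genes at 1873 CPM, with *Lyz2* as its most abundant gene, and stood at 545 CPM without the 12 members, with *Ctss*, a protease gene that B cells also use, at 471 CPM. The neutrophil list had UMIs of 8 of 9 genes at 239 CPM, led by *S100a9*, and 192 CPM without the 12 members, with *Ltf* at 0. *S100a8* had a UMI in 14.4% (10.9% to 18.5%) of thinned B cells and 11.1% (8.93% to 13.6%) of thinned T cells. The NK list stood at 96.6 CPM, led by *Gzma*, and at 1.90 CPM without the 12 members, and the platelet list at 81.7 CPM, led by *Pf4*, and at 0.475 CPM. The T cell list stood at 303 CPM, of which *Cd2*, also a B cell gene in mice, held 667 of 693 UMIs, and *Cd4* was at 0. The erythroid list stood at 5.68 CPM with *Alas2* at 0, and the conventional dendritic cell list at 3.93 CPM with *Clec9a* and *Cd209a* at 0. The plasmacytoid dendritic cell list stood at 62.9 CPM, of which *Bst2* held 141 of 144 UMIs, with *Siglech* and *Klk1* at 0. The stromal list stood at 86.5 CPM, nearly all from *Pecam1*, with *Col1a1*, *Col1a2*, *Col3a1*, *Dcn* and *Sparc* at 0, and the basophil and mast cell list was at 0. Whether these UMIs came from doublets, from free RNA or from the B cells was not tested.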

How the data were processed

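Libraries were prepared by the authors with 10x Genomics single cell 3′ v3 chemistry. The deposited values were raw UMI counts of each gene in each cell. Per the file headers the authors had used Cell Ranger 5.0.1 to make them, and mm10 is the build in the submitters' processing notes. No source used here mentions removal of doublets before deposit. Members and gene lists were chosen with earlier results of these data known, and the split by *Bhlhe41*, *Zbtb32* and *Fcrl5* and its matched depth were added after the data had been seen.

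Counts were analysed with Python 3.11.15, numpy 2.4.6, scipy 1.17.1, pandas 2.3.3 and scanpy 1.11.5, and drawn with matplotlib 3.10.9. UMIs were summed per group and scaled to 1000000. Ratios were given for genes with at least 50 UMIs in both groups together, and 2-fold was the threshold. Named genes were the 6 markers, the genes of the lists and, per comparison, the 10 highest and the 10 lowest log2 ratios, out of genes that had 100 or more UMIs and were detected in 10% or more of cells in the higher group. Other genes named were chosen after their values were seen. Intervals were 95% (exact Poisson for levels, Clopper-Pearson for shares, exact binomial for ratios) and cover counting error only, and a count of 0 was given the limit of 3 counts. Shares were compared after thinning to 2000 UMIs. Doublets were kept. Scrublet's automatic threshold called 32 blood cells, 1 marrow cell and 6 tendon cells, and as an alternative the top scores at 0.8% per 1000 cells were removed (38 blood cells, 6 of them B cells). On simulated counts for B cells against T cells, the interval held the true value for 95.4% of 195 changed genes and 96.1% of 7772 unchanged genes. The simulation drew UMIs at random over each whole group, which is what the interval assumes. It checks the calculation only, and the uneven spread of UMIs over cells was not covered. Gene positions were from GENCODE M21 and promoters from RefSeq. Planned light chain and isotype results were not computed, since immunoglobulin genes were not analysed here, and a few single-gene results are not reported here.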

Additional observations from a re-analysis of the deposited data

Results flagged for a closer look

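In the tendon injury site library, which the comparisons did not use, 15 of 4978 cells met the B cell rule (0.301%, exact binomial 95% interval 0.169% to 0.497%). They are given here because the cells lie outside the comparisons. Genes that define monocytes were found in 2 of them, platelet genes in 2 and conventional dendritic cell genes in 1. A single cell held 73999 UMIs and 605 of the 609 UMIs of the keratin gene *Krt14* found in these cells.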

How the results depend on the processing

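The share of B cells in the blood library stayed between 15.8% and 16.8% and the share with *Cd93* between 0.562% and 2.23% under the alternatives run. The counts of 2-fold genes moved with the minimum of UMIs, because that sets how many genes are tested. With at least 200 UMIs, 441 genes were higher and 285 lower against T cells, 421 and 1239 against monocytes, 75 and 109 against marrow B cells, and 36 and 57 in the split. With at least 20 UMIs the counts were 640 and 1165 against marrow B cells and 314 and 779 in the split. Centring on the median gave 339 lower against marrow B cells and 202 lower in the split. At matched depth, added after the data were seen, the split gave 74 higher and 193 lower. Of 259 list medians over 36 results, 160 moved by less than 0.1 on the log2 scale and 99 by that much or more. 21 of the 259 changed sign, all from medians within 0.22 of 0, such as homing against T cells (0.00, and -0.20 with at least 200 UMIs), B cell transcription factors against marrow B cells (-0.12, 0.12 when centred, and -0.55 without cells that carried genes of other types) and interferon stimulated genes against marrow B cells (0.03, and -0.36 with each cell weighted equally). Of 43 other settings listed at the start, 18 were not run: those of the light chain results, those that left immunoglobulin genes out of the total, and those of a split between *Cd93* and *Fcer2a*, which left 2 against 234 cells. No paired analysis was possible because there was 1 library per tissue. The 26 marrow B cells limit that comparison by depth.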
